A study of Drosophila melanogaster with 2 samples.

Results

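The peaks described here lie in the pericentromeric heterochromatin of Drosophila melanogaster, where the protein made by CG14711 was mapped by chromatin immunoprecipitation and sequencing (ChIP-seq). They were chosen by position alone, on coordinates of the dm6 assembly. A peak was taken when its summit, the position the authors marked as its highest point, lay at or beyond 22 Mb on arm 2L, 22.9 Mb on 3L or 22.6 Mb on X, or at or before 4.2 Mb on 3R. Of 30000 peaks called on the pooled replicates, 167 met this rule: 52 on 2L, 59 on 3L, 18 on 3R and 38 on X. The other 24011 peaks of the same 4 arms are the rest they were compared with.

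The study has 1 group, whole adult female flies of unknown age from a transgenic line in which CG14711 carries enhanced green fluorescent protein (eGFP) at its C terminus, precipitated with an antibody against GFP. It has 2 biological replicates, numbered 3 and 4. The promoter that drives the transgene is not given in the sources used here, and all tissues of the fly are mixed. No chromatin mark was among the files used, so heterochromatin is a name for these windows by position.

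Pericentromeric heterochromatin is the compact chromatin that flanks the centromeres. In flies it is rich in transposable elements and satellite repeats, carries methylation on lysine 9 of histone H3, and is bound by the protein HP1. Genes are sparse in it but not absent, and the best studied ones, such as light and rolled, depend on that setting for normal expression. Many of them have long introns filled with old transposable elements.

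A shorter list was thresholded on the irreproducible discovery rate (IDR), which scores whether a peak keeps its rank from replicate to replicate. Its 5654 peaks were exactly the 5654 pooled peaks of highest signal, with a lowest signal of 146.3, so being in it is a statement of strength. Signal is the authors' value for a peak and was compared only within a list. Read counts were not part of the lists, which leaves the depth of both replicates unknown, and no untagged sample was analysed here. The pooled list held exactly 30000 peaks, so a pooled peak called absent below means none among those 30000. P-values below treat peaks or genes as units and do not measure variation between fly preparations. Some neighbouring peaks overlap, and the tests and intervals count them as separate, independent units.

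Sequences at the strongest peaks come first, because 4 of the 6 pericentromeric IDR peaks sat at the start of a protein-coding gene. Each start window runs from 150 bases before the annotated start to 20 bases from it onward, on the strand of the gene, 5′ to 3′, from the RefSeq copy of the dm6 sequence. The capitals mark 7 bases, from 2 bases before the start to 4 after it. RpL10, RpL5 and RpL15 encode proteins of the large ribosomal subunit, and Clamp encodes a zinc finger protein that binds GA-rich DNA and helps target the dosage compensation complex. The windows are chr3L:23095452-23095621 on the minus strand for RpL10, chr2L:22169124-22169293 on the minus strand for Clamp and chr3L:27267106-27267275 on the plus strand for RpL15. The RpL15 window does not hold the summit, which lies 30 bp downstream of the start. The start of RpL5 nearest its peak is not shown because the bases before it are 5′ untranslated sequence of a longer RpL5 transcript.
RpL10: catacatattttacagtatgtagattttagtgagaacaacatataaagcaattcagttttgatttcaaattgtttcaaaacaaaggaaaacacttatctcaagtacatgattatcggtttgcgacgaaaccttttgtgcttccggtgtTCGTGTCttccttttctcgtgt
Clamp: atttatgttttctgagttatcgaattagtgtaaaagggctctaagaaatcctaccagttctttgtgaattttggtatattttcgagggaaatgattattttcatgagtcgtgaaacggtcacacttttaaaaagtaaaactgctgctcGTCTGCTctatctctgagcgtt
RpL15: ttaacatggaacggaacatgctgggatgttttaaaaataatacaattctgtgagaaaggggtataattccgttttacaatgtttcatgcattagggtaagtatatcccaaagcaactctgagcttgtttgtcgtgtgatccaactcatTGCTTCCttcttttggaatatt

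A further pair of windows shows peaks inside introns, each with the summit base and 50 bases on either side of it, on the plus strand. The first is the only intronic peak of the 6, in CG42748 at chr2L:22148939-22149039, and its capital marks the summit base. The second is the peak in an intron of nrm at chr3L:23015879-23015979, the only one of the 167 with CAACCCTG within 50 bases of its summit. Its capitals mark CAACCCTG, CTCTC (the reverse complement of GAGAG) and TATCGATA.
CG42748 intron: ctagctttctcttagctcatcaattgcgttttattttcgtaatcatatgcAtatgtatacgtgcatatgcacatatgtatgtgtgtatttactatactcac
nrm intron: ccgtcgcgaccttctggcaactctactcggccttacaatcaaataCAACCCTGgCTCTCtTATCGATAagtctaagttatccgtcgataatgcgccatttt

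The first question was how densely the windows were occupied. Peaks were sparse in them: 14.1 summits per Mb over 11.9 Mb, against 252 per Mb over 95.4 Mb in the rest of the arms, a ratio of 0.0559. In the exact two-sided binomial test the p fell below the smallest value that the computer's arithmetic can represent. IDR peaks were sparser still, with 6 summits (0.506 per Mb) against 4593 (48.2 per Mb), a ratio of 0.0105 (exact binomial test, Benjamini-Hochberg adjusted p = 1.88e-220 over the 8 tests). With each boundary moved 500000 bp nearer the telomere the ratios were 0.135 and 0.0890, and moved as far nearer the centromere they were 0.0270 and 0.00429. Every arm was below its own rest. X had 40.3 pooled summits per Mb against 252, 2L had 34.4 against 237, 3L had 11.3 against 272, and 3R had 4.29 against 246.

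The windows also differed from the rest in sequence, in ways whose part in the density was not tested. Of their 36-base words, 57.6% had more than 1 copy in the assembly, against 5.52% in the rest. Annotated transposable elements covered 15.1% of their bases against 4.07%, soft-masked repeats covered 40.7% against 17.5%, and GC content was 39.9% against 42.4%. How reads that match several places were treated is not given in the sources used here. Counted per Mb of single-copy positions, the densities were 33.6 against 267 (ratio 0.126). Counted per 100 annotated transcription start sites (TSSs), of which the windows held 290 and the rest 18239, they were 57.6 against 132 (ratio 0.437). The ratio thus rose with each change of denominator and stayed below 1, with the largest adjusted p at 6.55e-34 in exact binomial tests. Away from promoters, over 500 bp from any TSS, all pooled summits were counted per Mb of single-copy positions. They numbered 16.7 against 198 (ratio 0.0846, adjusted p = 9.84e-281 in the exact binomial test).

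The density changed over distance, and differently on each arm. On 2L it stepped down through the window, from 60 summits per Mb in the 0.5 Mb next to the boundary to 28 and then 14. On 3L it was 38 per Mb in the first 0.5 Mb and between 0 and 14 in each later step. On 3R 16 of the 18 summits lay in the first 0.5 Mb and 2 in the next. None lay nearer the centromere than that. On X 36 of 38 lay in the first 0.5 Mb, where 17.7% of words were multi-copy, and 2 lay in the remainder, where 79.9% were. The X boundary did not separate repeat-rich from repeat-poor sequence: the 0.5 Mb steps just outside it were 58.3% and 83.2% multi-copy and held 62 and 16 summits per Mb.

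**Figure D1:**
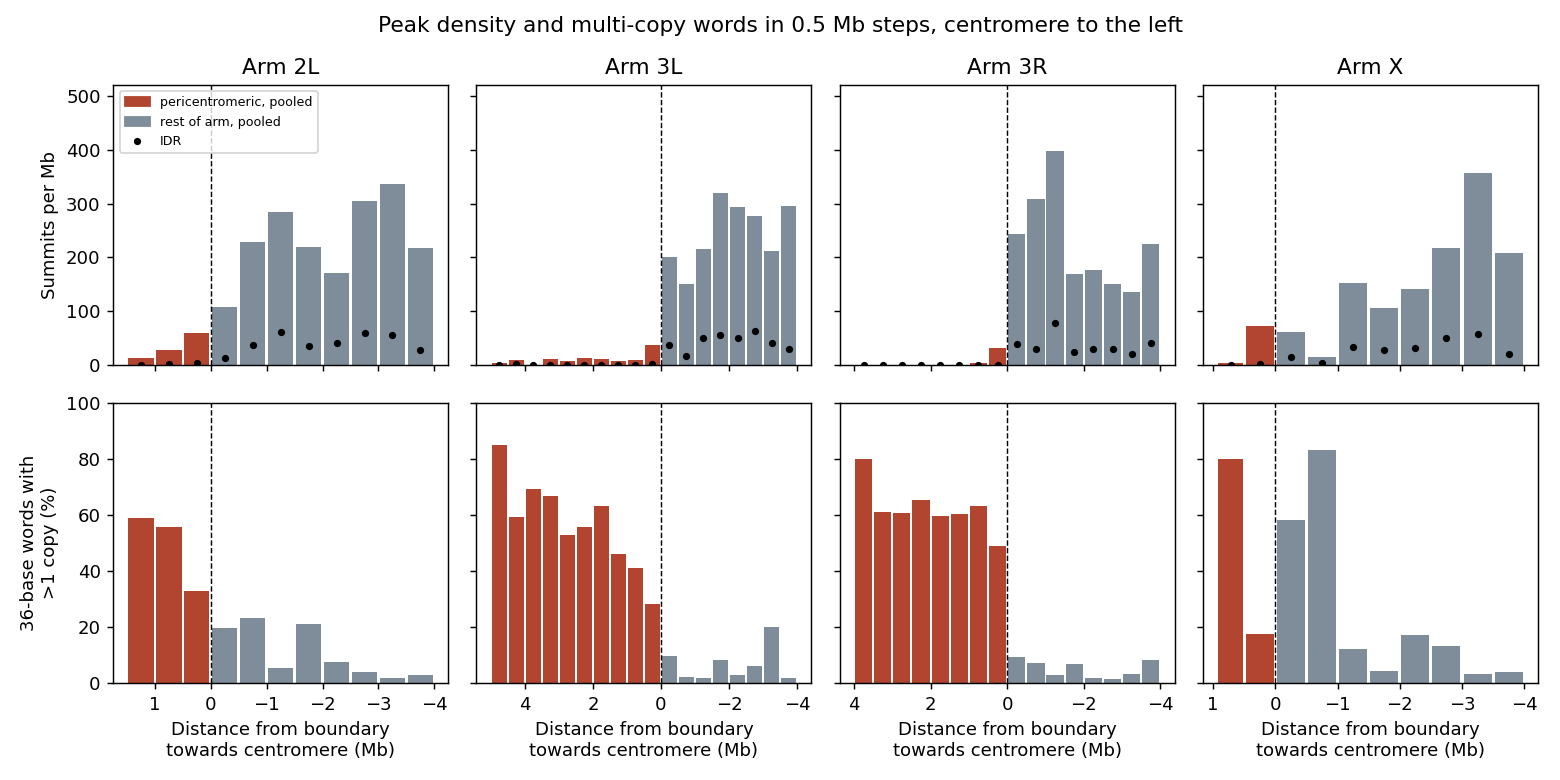
Pooled summits per Mb (bars, top row), IDR summits per Mb (black points) and the share of 36-base words with more than 1 copy (bottom row) in steps of 0.5 Mb around each boundary (dashed line), with distance towards the centromere running to the left. The pericentromeric steps (red) lie below the nearest steps of the rest (grey) on 2L, 3L and 3R, while on X the first step inside, at 72 summits per Mb, is above the 62 and 16 of the nearest steps outside. A last step of under 0.25 Mb is not drawn for 2L, 3L and 3R.

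Spacing within the windows was uneven. The median gap between neighbouring summits was 2.18 kb on 2L, 4.95 kb on 3L, 10.2 kb on 3R and 1.92 kb on X. Pairs of neighbours within 1 kb numbered 10 on 2L, 12 on 3L, 4 on 3R and 12 on X. The widest gap between them was 1069 kb, on 3L between 26014468 and 27083229. Signal of the peaks nearest the boundaries was 44.8 just inside against 29.3 just outside on 2L, 74.1 against 65.7 on 3L, 38.0 against 33.6 on 3R and 29.8 against 128 on X.

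Pericentromeric peaks were weaker than the rest as a description. Their signal ran from 29.3 to 257.9 with a median of 45.3 (quartiles 33.7 to 76.3), against a median of 59.5 (39.1 to 116) and a highest value of 9217 in the rest. The replicate lists had the same order: the median was 21.5 against 28.95 in replicate 3 and 29.6 against 37.5 in replicate 4. The best rank of a pericentromeric peak was 2801 in the pooled list and 2948 in replicate 4, both at RpL10, and 2490 in replicate 3, at RpL5.

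**Figure D2:**
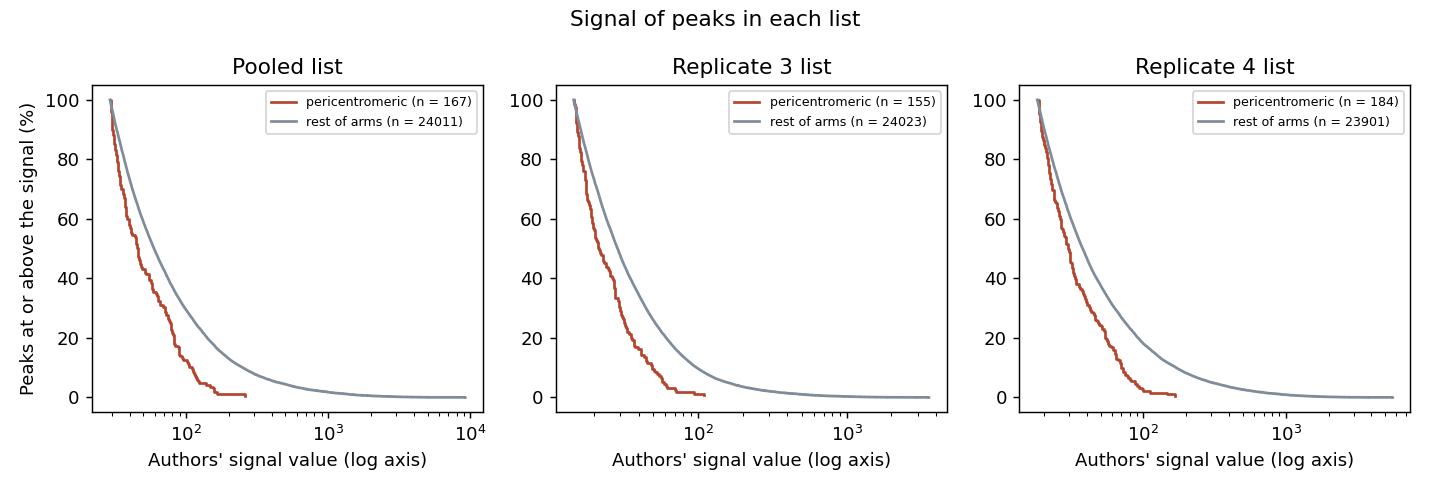
Share of peaks (y axis, percent) at or above a given signal (x axis, log scale) in the pooled, replicate 3 and replicate 4 lists, for pericentromeric peaks (red) and the rest of the arms (grey). In each list the red curve lies left of the grey one at the median and ends far earlier, at 257.9 against 9217 in the pooled list.

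The test of strength was the share of peaks in the IDR list. It was 3.59% of pericentromeric peaks (6 of 167, Wilson 95% interval 1.66 to 7.62%) against a background of 19.1% in the rest (18.6 to 19.6%), with odds ratio 0.158 (Fisher's exact test, two-sided, adjusted p = 5.48e-09). In the replicate lists, 4 of 155 and 5 of 184 pericentromeric peaks were among the 5654 strongest, 2.58% against 18.9% in replicate 3 and 2.72% against 19.2% in replicate 4. With each boundary moved 500000 bp nearer the telomere the share was 12.7% (60 of 474) against 19.2%, with odds ratio 0.612. The difference held among promoter peaks alone, where 5.75% against 32.3% were IDR peaks (adjusted p = 6.69e-09, Fisher's exact test, a split chosen after seeing the data). Among intronic peaks alone, 2.86% against 12.9% did not pass (adjusted p = 0.158, Fisher's exact test).

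Support by the replicates was also lower. A replicate 3 summit lay within 100 bp of 40.7% of pericentromeric summits against 61.6% in the rest, and a replicate 4 summit within 100 bp of 58.7% against 68.1%. Both replicates had one at 39 pericentromeric summits (23.4% against 43.5%), and neither had one at 40 (24.0% against 13.8%). These shares were not tested.

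The 6 IDR peaks began with ribosomal protein genes. The strongest had its summit 1 bp upstream of the start of RpL10 (FBgn0024733, 3L, 23093190 to 23095471, minus strand), with a signal of 257.9 in the pooled list, 95.0 in replicate 3 and 168 in replicate 4. At RpL5 (FBgn0064225, 2L, 22532279 to 22536884, minus strand) the summit lay 42 bp downstream of an internal annotated start and not of the outermost one, with signals of 165.3, 110 and 71.6 in the same order. At RpL15 (FBgn0028697, 3L, 27267255 to 27268445, plus strand) it lay 30 bp inside, with 157.5 in the pooled list and 145.9 in replicate 4. Replicate 3 had no summit within 100 bp there. Of these starts, those of RpL10 and RpL15 are printed above, and 2 of the 3 ribosomal peaks repeated in both replicate lists and the third did not.

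The other IDR peaks had more varied places. Clamp had its summit 109 bp upstream of its start, with signals of 157.8 pooled, 49.3 in replicate 3 and 87.7 in replicate 4. The peak in a 7.80 kb intron of CG42748 had 155.4, 71.4 and 69.0, and the nearest TSS, that of dunk, was 2634 bp away. On X a peak of 147.1 pooled, 60.8 in replicate 3 and 98.3 in replicate 4 lay 223 bp upstream of the noncoding RNA gene lncRNA:CR45010, within the span of FucTC, a fucosyltransferase gene. This one stood closest to the lowest signal of the IDR list. No IDR peak lay on 3R. With each boundary moved 500000 bp nearer the centromere, only the 2 IDR peaks at RpL5 and RpL15 stayed in the windows.

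Just below that limit came 4 peaks that complete the 10 strongest. They were at beta-Man, a mannosidase gene on 3R (139), ND-MLRQ, a subunit gene of mitochondrial complex I on 3L (122), asRNA:CR45009 on X (120) and an intron of CG40045 on 3L (119). In the replicates beta-Man had 57.7 in replicate 3 and 82.2 in replicate 4, and the CG40045 intron had 36.1 and 98.9. ND-MLRQ had a summit within 100 bp in replicate 3 only (51.3), and asRNA:CR45009 in replicate 4 only (69.8).

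Ribosomal protein genes of the windows had lower promoter signals than most of those elsewhere. This group was chosen after its values were seen, by symbol, and has no test. All 4 such genes in the windows had a pooled promoter peak and 3 had an IDR one, with signals from 112 at RpL21 to 257.9 at RpL10 and a median of 161. In the rest 64 of 66 had a pooled promoter peak and 57 an IDR one, with a median signal of 341 (quartiles 252 to 459). RpL10, the highest of the 4, was above 18 of those 64.

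A larger share of pericentromeric peaks than of the rest lay at promoters. Promoter peaks, with a summit within 500 bp of a TSS, made up 52.1% of pericentromeric peaks (87 of 167, interval 44.6 to 59.5%) against 37.2% of the rest (36.5 to 37.8%), with odds ratio 1.84 (Fisher's exact test, two-sided, adjusted p = 0.000119). It was 52.9% against 37.6% in the replicate 3 list and 44.6% against 37.1% in the replicate 4 list (Fisher's exact test, adjusted p = 0.0441 for replicate 4), and by arm it ran from 47.4% on X to 66.7% on 3R. The share was lower, 47.0% against 37.2%, and did not pass (Fisher's exact test, adjusted p = 0.143) with each boundary moved 500000 bp nearer the centromere. Among IDR peaks 5 of 6 against 62.8% were promoter peaks, which did not pass (adjusted p = 0.422, Fisher's exact test). Promoter positions were scarcer in the windows: they made up 3.74% of single-copy positions against 15.2% in the rest.

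Introns showed the reverse. Intronic peaks, over 500 bp from a TSS, were 21.0% (35 of 167, 15.5 to 27.8%) against 42.9% (42.3 to 43.5%), with odds ratio 0.353 (Fisher's exact test, two-sided, adjusted p = 5.48e-09). Introns made up more of the windows than of the rest, 50.02% against 39.6% of single-copy positions. The remaining peaks were exonic (25, 14.97% against 8.13%) or intergenic (20, 12.0% against 11.8%). Promoter peaks were also the strongest class, with a median signal of 57.5 against 91.0 in the rest, while intronic ones had 37.0 against 53.0, exonic ones 37.7 against 40.6 and intergenic ones 35.4 against 47.6.

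**Figure D3:**
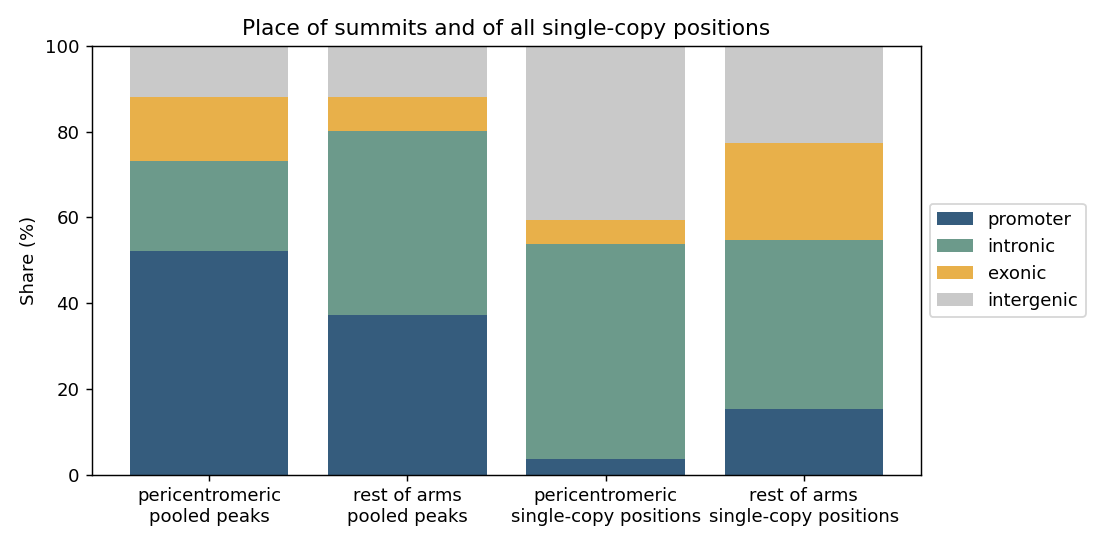
Shares (percent) of pooled summits and of all single-copy positions that are promoter (within 500 bp of a TSS), intronic, exonic or intergenic, in the pericentromeric windows and in the rest of the arms. Promoters hold 52.1% of pericentromeric peaks but 3.74% of single-copy positions there, while introns hold 21.0% of those peaks and 50.02% of the positions.

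Genes were counted next. Of the 116 protein-coding genes with a TSS in the windows, 66 had a pooled promoter peak, 56.9% (47.8 to 65.5%) against a background of 60.5% in the rest. That odds ratio was 0.860 and did not pass (Fisher's exact test, two-sided, adjusted p = 0.446), which does not show the shares to be alike. Only 4 had an IDR promoter peak, 3.45% (1.35 to 8.53%) against a background of 31.1% (3391 of 10897), with odds ratio 0.0791 (Fisher's exact test, two-sided, adjusted p = 2.33e-13). With each boundary moved 500000 bp nearer the telomere the shares were 14.7% (49 of 334) against 31.3%, with odds ratio 0.377. Among all annotated genes, noncoding ones included, 39.0% (32.9 to 45.5%) against 54.1% (53.3 to 54.9%) had a pooled promoter peak, which was not tested. The 4 are RpL10, RpL5, Clamp and RpL15. The replicate lists gave shares of genes with any promoter peak of 49.1% against 59.6% in replicate 3 and 53.5% against 59.8% in replicate 4.

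The level of the strongest promoter peak of each gene was also lower. Over the 66 pericentromeric genes with one its median signal was 64.6 (quartiles 45.1 to 86.6), against 150.3 (79.5 to 307) over 6598 genes of the rest. Of genes with any pooled promoter peak, 6.06% against 51.4% had an IDR one.

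A list of 22 genes known from the fly heterochromatin literature was looked up whatever its values. The annotation put 19 of them in the windows, with Parp and Cht3 listed as Parp1 and Cht10. For these genes the value is the strongest summit within 500 bp of a TSS of the gene in each list. That rule is wider than the 100 bp from the pooled summit used for the strongest peaks above. By the 100 bp rule, the strongest pooled summits of su(f), lt and nvd had none in replicate 3, and that of Set1 none in replicate 4. Of these 19, 13 had a pooled promoter peak, 2 had an IDR one (RpL5 and RpL15), and 6 had none. Beside them stand the backgrounds of 60.5% of protein-coding genes of the rest with a pooled promoter peak and 31.1% with an IDR one, and nothing particular to the list is read from its counts.

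Among housekeeping genes of that list was su(f), which acts in messenger RNA 3′ end formation. Its promoter signal was 102 pooled, 70.4 in replicate 3 and 93.3 in replicate 4. The replicate 3 value came from a summit within 100 bp of another pooled peak, of 65.6, nearest the TSS of CG17162. Dbp80, an RNA helicase gene, had 93.9, 15.6 and 89.6. Tim23, of the mitochondrial import machinery, had 33.5 pooled, 27.7 in replicate 3 and none in replicate 4. The replicate 3 peak at Dbp80 ranked 28325 in its list of 30000, while the replicate 4 peak there ranked 6049. eIF4B, a translation initiation factor gene, had 35.99 pooled and 22.5 in replicate 4. Only 0.365% of the positions of its span were single-copy, but its summit lay 76 bp upstream of the gene, where no word within 50 bases had a second copy.

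Chromatin and silencing genes of the list had signals below the IDR list or no peak. Parp1, for poly(ADP-ribose) polymerase, had 88.5 pooled and 70.1 in replicate 4, with none in replicate 3. vtd, for the Rad21 subunit of cohesin, had 80.9 pooled, 32.6 in replicate 3 and 39.0 in replicate 4. Set1, a histone H3 lysine 4 methyltransferase gene, had 47.4, 22.2 and 31.4. AGO3, an Argonaute gene of the piRNA pathway, which silences transposable elements, had no promoter peak, with its nearest summit 159 kb from its start.

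Signalling and transport genes were split. lt (light), which acts in vesicle delivery to lysosomes, had 82.6 pooled, 27.5 in replicate 3 and 61.0 in replicate 4. cta (concertina), a G protein alpha subunit gene, had 51.4, 20.3 and 45.5, and nrm, which encodes a cell surface protein, had 51.3 pooled and 35.6 in replicate 3. Within 500 bp of a TSS, both replicates were thus represented at lt and cta and replicate 3 alone at nrm. Within 100 bp of the pooled summit, replicate 3 was not represented at lt. Snap25, of the synaptic vesicle fusion machinery, and the 3R genes Myo81F, a myosin gene, and Pzl, a Piezo-like channel gene, had none. The ecdysone synthesis genes differed too: nvd had 40.8, 16.0 and 21.3, while spok had none. Cht10, a chitinase gene, had no pooled promoter peak and one of 15.4 in replicate 3.

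**Figure D4:**
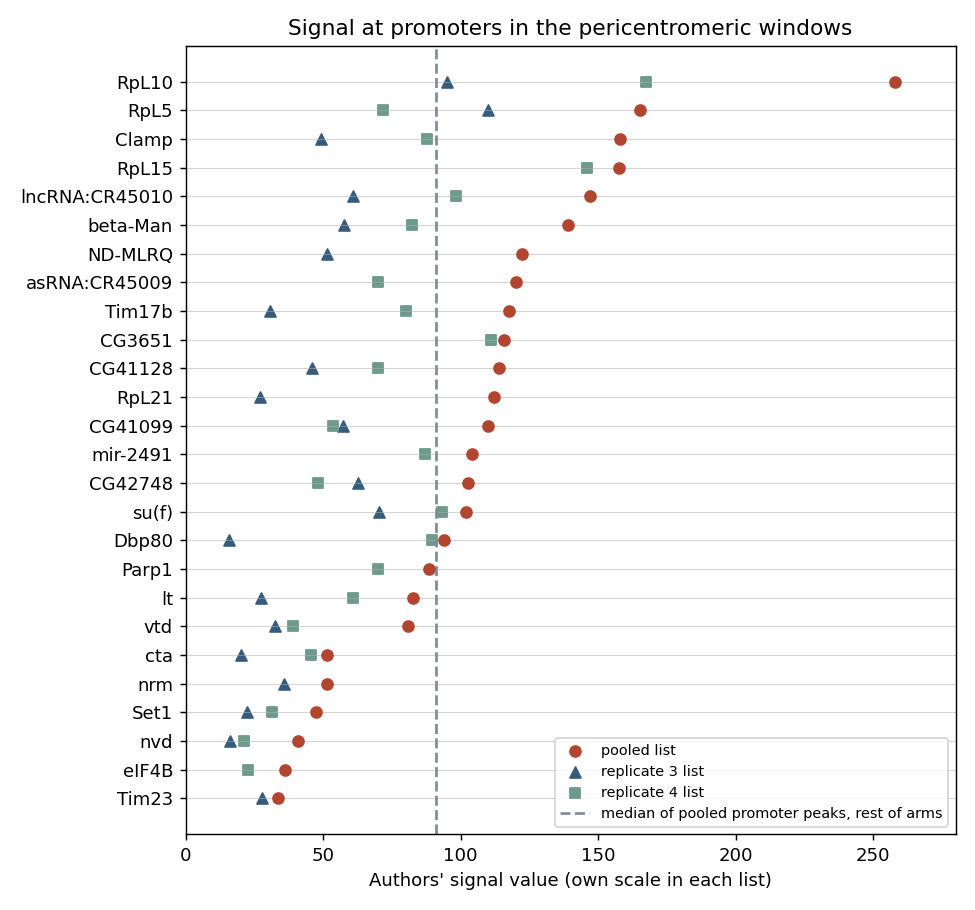
Authors' signal (x axis, own scale in each list) at promoters of listed genes and of genes among the 20 strongest peaks, in the pooled list (circles), replicate 3 (triangles) and replicate 4 (squares), with a missing symbol where no summit lay within 500 bp of a TSS (listed genes) or 100 bp of the pooled summit (other genes). RpL10 stands apart at 257.9 pooled, and the dashed line at 91.0 marks the median of pooled promoter peaks in the rest of the arms, above most of the heterochromatin gene list. The line is a median over single peaks, while each listed gene is shown by its strongest promoter peak. Over genes of the rest, the median of the strongest promoter peak is 150.3.

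Long genes held few intronic peaks. Protein-coding genes of the windows had a median span of 6.56 kb against 2.16 kb, and a median longest intron of 2.31 kb against 0.130 kb. The 14 genes over 50 kb, spanning 4.51 Mb, held 10 intronic summits, 2.22 per Mb, against 3154 summits and 153 per Mb over 234 genes in the rest. Per single-copy Mb the values were 4.91 against 163. None of the 10 was an IDR peak, against 280 of the 3154. Only 4 of the 14 genes had any intronic summit, against 219 of the 234. These counts were not tested.

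The longest genes held no listed summit in their introns. Myo81F, which spans 1966 kb on 3R (567076 to 2532932), had no intronic summit, and the nearest summit lay 2902 kb from its start. Pzl (709 kb), lovit (434 kb) and Snap25 (225 kb) had none either. Single-copy positions made up 37.3% of Myo81F, 39.5% of Pzl, 43.5% of lovit and 56.3% of Snap25, a median of 55.6% over the 14 genes against 95.7% over the 234, and the part of this in the counts was not tested. l(3)80Fg (216 kb, 55.3% single-copy) had 4 intronic summits with signals of 31.3 to 76.0. CG42346 (53.1 kb on X, 97.2% single-copy) also had 4, and they are the same 4 summits as those of fog, a gene on the opposite strand that overlaps it.

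With each of the 35 intronic peaks given to 1 gene, they were shared among 18 genes. The 4 that lie in both fog and CG42346 are counted here under fog only. CG42748 on 2L (22131221 to 22166221, plus strand, 35.0 kb) had 7, from 30.5 to 155.4, of which 5 lay within 1000 bp of an annotated element. fog, which encodes a secreted signal of gastrulation, had 4 (38.0 to 57.7), CG17167 had 4 (30.8 to 34.4), CG40045 had 2 (81.9 and 119) and CG12581 had 2 (31.2 and 32.8). nrm, Mes2, RpL10 and l(3)80Fj had 1 each, at 82.5, 46.0, 40.9 and 37.1. CG42748 had the most intronic peaks and the strongest one, and its promoters also carried peaks of 103 and 89.2. Some of its intronic peaks overlapped, such as those with summits at 22148989 and 22149201. Per 100 kb of span CG42748 had 20, below RpL10 (43.8), CG17167 (31.1), CG40045 (27.2) and su(f) (21.5). The rates of RpL10 and su(f) rest on 1 summit each, of signal 40.9 and 29.9, in spans of only 2.28 and 4.66 kb.

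Transposable elements were often close. A summit lay within 1000 bp of an annotated element at 62 of 167 pericentromeric peaks, 37.1% (30.2 to 44.7%) against 4.14% of the rest (3.90 to 4.40%), with odds ratio 13.7 (Fisher's exact test, two-sided, adjusted p = 1.38e-40). The same was true of 27.4% of all single-copy positions in the windows against 4.39% in the rest. The median distance to an element was 2154 bp against 25401 bp. Inside an element lay 6 summits, 3.59% against 0.283% of the rest, where 11.3% of single-copy positions in the windows against 0.558% in the rest did. So peaks stood near elements more often in the windows, as positions there did, and inside them less often than positions did in both parts.

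The result depended on the outer edge of the windows. With each boundary moved 500000 bp nearer the centromere, 6 of 66 summits were near an element, 9.09% against 4.36%, with odds ratio 2.19, which did not pass (Fisher's exact test, adjusted p = 0.0908). The annotation of elements was itself uneven: on 3L elements covered 49.4% and 62.6% of the first steps of 0.5 Mb and between 4.35 and 14.0% of the later ones, while soft-masked sequence covered between 30.2 and 43.2% of every step.

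INE-1, a short and very old element of flies, was the nearest element for 37 of the 62 summits, 3 of which were inside it. It was also the element with most annotated copies in the windows, 351, followed by 1360 with 152 and Cr1a with 61. 1360 and S elements were nearest for 5 summits each and Cr1a for 2. Of the IDR peaks, those at CG42748 and lncRNA:CR45010 had an INE-1 at 673 and 571 bp, Clamp a 30 bp piece of 1360 at 259 bp, and RpL10 an S2 element at 809 bp. RpL5 and RpL15 had none within 1000 bp. Peaks near an element had a median signal of 48.3 against 41.0 for the 105 farther away.

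The summits themselves were mostly single-copy. In the window of 50 bases on either side of each, soft-masked bases made up 22.2% on average against 19.7% in the rest, and GC content was 36.6% against 38.5%. A multi-copy 36-base word was present at 8 summits (4.79% against 0.533%), and at 0 were all words multi-copy, against 7 of the rest. The peaks called in the windows thus stood mostly on single-copy sequence, while 57.6% of all words in the windows were multi-copy. How reads that match several places were treated is unknown here, and its part in this was not tested.

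Few of the words searched were found at them, on either strand within 50 bases of the summit. CAACCCTG, picked on these same data in earlier work, was present at 1 summit, 0.599% against 0.800% of the rest, and at none of the 6 IDR peaks against 2.79% of the rest. TATCGATA, the core of the site of the factor DREF, was present at 4 (2.40% against 1.30%), and GAGAG, bound by GAGA factor, at 17 (10.2% against 12.0%). GGTCACAC, the core of the M1BP site, was present at 0 against 1.10%. AATAT and AAGAG in 3 tandem copies, the units of fly satellites, were present at 0 each, against 0.0208% and 0 in the rest. The nrm summit was the one with 3 of these words.

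In start windows of the length printed above, GGTCACAC occurred in 1 of 172 protein-coding windows of the pericentromeric part, 0.581% against 4.81% of 14998 in the rest. That one is Clamp, where it stands in lower case in the printed sequence and over 50 bases from the summit. TATCGATA occurred in 6.40% against 6.56% and GAGAG in 19.8% against 22.4%. CAACCCTG occurred in 0 of 172 against 0.980%. None of the 3 printed start windows held CAACCCTG, TATCGATA or GAGAG.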

How the data were processed

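ChIP-seq peak lists for 2 biological replicates of CG14711-eGFP were used as deposited. Per the text records deposited with the samples, the authors called a list for each replicate and for both pooled, each with a control alignment (not analysed here), and derived the IDR list from them on dm6. What aligner, peak caller and IDR cut-off were used is not given in the sources used here. Each deposited signal value is the authors' own and has a different scale in each list. The deposited −log10 q value reaches a maximum shared by 4.79% of pericentromeric peaks and 23.8% of the rest, and was not used to rank. The summit offset in the deposited lists was added to each peak start.

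Genes, TSSs and transposable elements came from the Ensembl BDGP6 annotation. Sequence came from the RefSeq copy of dm6, with arm lengths of 23.5, 28.1, 32.1 and 23.5 Mb for 2L, 3L, 3R and X. Arms 2R, 4 and Y were not used here. Copies of 36-base words were counted on both strands of the whole assembly. Densities were compared by exact binomial tests, shares by Fisher's exact test, with Benjamini-Hochberg adjustment over 8 tests at 0.05, and shares carry Wilson 95% intervals that cover the sampling of peaks or genes only. Signal, repeats and words were described without a test. Distances tried beside 500 bp to a TSS were 250 and 1000 bp, and beside 1000 bp to an element 500 and 2000 bp. Functions were tested on simulated data. Python 3.11.15, numpy 2.4.6, pandas 2.3.3, scipy 1.17.1 and matplotlib 3.10.9 were used.

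The windows, gene list, words and tests were chosen with earlier results of these data known. Named genes are those with an IDR promoter peak, the 10 with most intronic peaks, the 10 strongest peaks and the heterochromatin gene list; RpL21, lncRNA:CR45010, FucTC, dunk, lovit, CG42346 and the further genes in the plot of promoter signals were named after their values were seen.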

Additional observations from a re-analysis of the deposited data

How the results depend on the processing

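Of the 95 values recomputed for the 8 results, under 18 planned settings and 6 chosen after seeing the data, 89 kept their direction and their side of the threshold, though not always their size. With boundaries 500000 bp nearer the telomere the pooled and IDR density ratios were 0.135 and 0.0890 and the odds ratios 0.612 for the IDR share and 0.377 for genes with an IDR promoter peak. The other 6 are odds ratios. With boundaries 500000 bp nearer the centromere, the promoter share of pooled peaks had 1.493 and summits near an element 2.194, and neither passed. With boundaries nearer the telomere, the promoter share of IDR peaks passed at 2.161 (78.3% against 62.6%, adjusted p = 0.0148, Fisher's exact test). Genes with a promoter peak had 0.8601 when all pooled peaks were used. Among intronic peaks alone the IDR share had 0.1979, and among the 20 intergenic ones 0 (0% against 9.77%), and neither passed. The cause was not tested. With the replicate 3 or replicate 4 list alone, the density ratio of all listed peaks was 0.0519 to 0.0619. The odds ratios were 1.37 to 1.87 for the promoter share, 0.410 to 0.413 for the intronic share and 13.4 to 14.2 for elements. In place of IDR peaks, each replicate's own 5654 strongest peaks were taken, and the odds ratios for their share were 0.113 to 0.118. No paired analysis was possible because the study has 1 group. Unknown depth limits what an absent peak means. So does the length of the pooled list, exactly 30000 peaks: weaker peaks may lie outside it. Whether that number was set in advance is not known here.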
